A study of Homo sapiens with 10 samples.

Results

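The aldehyde dehydrogenases examined here were ALDH1A1, ALDH1A3, ALDH1B1, ALDH1L1, ALDH2, ALDH3A1, ALDH3A2, ALDH3B1, ALDH7A1 and ALDH9A1. They were found by gene symbol in the deposited expression table, which held 10 of 10 names among 46427 genes. Poly(A) RNA was sequenced from 10 cultures of H460 and A549 cells, which are established human lung cancer cell lines. Parental H460 cells in ordinary two-dimensional (2D) culture, in medium with serum, gave 3 libraries. H460 cells that survived paclitaxel (5 nM) gave 2 libraries (PR), and survivors of cisplatin (4 uM) and of doxorubicin (0.5 uM) gave 1 library each (CR and DR). Each drug was given for 3 days and was followed by 3 days in fresh medium, after which the cells were re-plated. These cells were therefore survivors of 1 round of treatment and not lines selected over many passages, and the labels describe their controls only as 2D cultures. Tumorsphere (TS) cells were grown in suspension on coated plates in serum-free medium with the supplement B27 and 2 growth factors (bFGF and EGF), and gave 1 library of H460 and 1 of A549. The sample labels call these libraries CTC, after the culture method. A549 cells in 2D culture gave 1 library and served as the control of the A549 TS library. No label says that replicate libraries came from separate cultures, so the p-values measure the spread between these libraries, which may be technical.

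Aldehyde dehydrogenases oxidize reactive aldehydes to carboxylic acids with NAD or NADP as the cofactor. ALDH1A1 and ALDH1A3 make retinoic acid from retinaldehyde, and ALDH activity of this kind is widely used to sort stem-like cells from lung and other tumors. ALDH3A1, ALDH3A2 and ALDH3B1 act mainly on aromatic and fatty aldehydes, such as those released when membrane lipids are oxidized. ALDH2 and ALDH1B1 are mitochondrial enzymes that oxidize acetaldehyde. ALDH7A1 works in lysine breakdown, ALDH9A1 in carnitine synthesis, and ALDH1L1 in folate metabolism.

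The counts on genes summed to 59499787 to 89541774 per library (median 71656787). In all 10 libraries fewer genes had 1 count than 2 counts, for example 672 and 987 genes in parental replicate 1, so a count may not be an independent read, and low counts and the floor of 3 counts used below carry this doubt. In bulk RNA, a smaller share of expressing cells and less RNA per cell cannot be told apart. Of 5 epithelial markers, KRT8 and KRT18 were at 190 FPKM or more in every library, whereas EPCAM and CDH1 were at most 0.114 and 0.0266 FPKM in the H460 libraries. The summed level of 5 endothelial markers was at most 0.484 FPKM in any library, and the leukocyte markers PTPRC and CD3E were at 0 in all parental libraries and at most 0.157 FPKM in any other. The cultures were of established cell lines, so the leukocyte markers CD68 and CD14 are not read here as signs of leukocytes. CD68 was at most 16.9 FPKM in parental and at 30.7 to 57.9 FPKM in drug-resistant libraries and was called higher. CD14 was at 2.78 to 9.49 FPKM and 11.5 to 17.1 FPKM. For 5 fibroblast markers the sums were 14.9 to 32.5 FPKM and 10.3 to 26.5 FPKM, with COL1A1 higher, COL3A1 lower and COL1A2 at 0 in all parental libraries. The 10 proliferation genes, which include MKI67 and TOP2A, were all lower in drug-resistant cells than in parental cells by edgeR. Their mean log2(FPKM + 1) was 5.67–6.13 in the parental libraries and 2.46–3.94 in the CR, PR and DR libraries. These shifts moved with each difference between drug-resistant and parental cells given below, and their part in them was not tested.

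The genes lay on 8 chromosomes of the human genome (GRCh38.p14 annotation), so most of them were not neighbors. ALDH3A2 (chr17:19648136-19677596, plus strand) and ALDH3A1 (chr17:19737984-19748298) were 60387 bases apart. ALDH1A1 (chr9:72900671-72953053, minus strand) and ALDH1B1 (chr9:38392702-38398661, plus strand) shared a chromosome but not a region. The 250 bases before the start site are shown for ALDH1A1, which differed most in absolute FPKM between the lines in 2D culture, and for the 3 genes that were lower in drug-resistant cells. They were taken from RefSeq (GRCh38.p14), in which 8 of the 10 genes had a promoter window, and ALDH3A1 and ALDH2 had none. All 4 are given 5′ to 3′ on the strand of the gene, and capitals mark a CCAAT box (CCAAT) or a GC box (GGGCGG) read on either strand.
ALDH1A1, chr9:72953054-72953303, minus strand: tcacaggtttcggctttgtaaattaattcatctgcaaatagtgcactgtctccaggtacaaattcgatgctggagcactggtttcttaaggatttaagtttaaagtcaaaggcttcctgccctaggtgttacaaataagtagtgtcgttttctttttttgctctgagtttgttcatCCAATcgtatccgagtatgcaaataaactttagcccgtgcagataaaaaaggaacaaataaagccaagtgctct
ALDH1B1, chr9:38392452-38392701, plus strand: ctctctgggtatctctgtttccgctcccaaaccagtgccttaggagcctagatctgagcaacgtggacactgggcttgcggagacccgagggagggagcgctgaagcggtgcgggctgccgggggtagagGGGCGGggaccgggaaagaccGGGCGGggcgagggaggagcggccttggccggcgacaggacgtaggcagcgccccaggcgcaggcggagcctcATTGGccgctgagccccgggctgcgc
ALDH7A1, chr5:126595220-126595469, minus strand: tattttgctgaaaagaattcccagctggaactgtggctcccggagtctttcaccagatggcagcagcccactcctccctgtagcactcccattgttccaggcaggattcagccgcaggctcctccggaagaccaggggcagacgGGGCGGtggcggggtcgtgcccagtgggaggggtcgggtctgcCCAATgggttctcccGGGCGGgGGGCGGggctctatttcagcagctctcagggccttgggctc
ALDH9A1, chr1:165698563-165698812, minus strand: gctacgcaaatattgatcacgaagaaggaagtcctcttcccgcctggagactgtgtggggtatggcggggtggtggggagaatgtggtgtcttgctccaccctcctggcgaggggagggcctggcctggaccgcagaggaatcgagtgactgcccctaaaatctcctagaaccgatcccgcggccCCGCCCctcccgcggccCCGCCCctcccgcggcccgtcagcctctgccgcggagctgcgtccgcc

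The ALDH1A1 window had a GC content of 38.4%, below the median of 58.0% over 35116 promoter windows. It held a CCAAT box 74 bases before the start and none of the GC boxes searched. The windows of ALDH1B1, ALDH7A1 and ALDH9A1 had GC contents of 70.4%, 64.0% and 67.2%, and held 2, 3 and 2 GC boxes. Those of ALDH1B1 and ALDH7A1 also held a CCAAT box, 26 and 63 bases before the start, and that of ALDH9A1 held none. A GC box was present in 42.6% and a CCAAT box in 32.0% of all windows, so that either match is common. The core of the antioxidant response element (TGACNNNGC, both strands) was found in 10.9% of all windows and in none of the 11 windows of 8 genes. ALDH3A1 and ALDH2 had no window, so their promoters were not searched. The TATA box (TATAAA) and the E-box (CACGTG) were found in 10.7% and 6.34% of all windows. A match describes these letters and is not a measured binding site.

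In parental H460 cells, the levels per transcript length (FPKM) spanned several orders of magnitude. ALDH3A1 was highest, at 475, 384 and 501 FPKM in parental replicates 1, 2 and 3, and ALDH1A1 was next, at 106, 176 and 134 FPKM. These 2 genes together made up 77.0–81.8% of the summed FPKM of the 10 genes. ALDH9A1 and ALDH3A2 followed with means of 47.7 and 44.7 FPKM, and their ranges overlapped. ALDH3B1, ALDH7A1 and ALDH1B1 had means of 19.1, 17.5 and 17.3 FPKM, and neighbors in this order did not differ beyond their spread. ALDH1A3, ALDH2 and ALDH1L1 had means of 0.284, 0.153 and 0.0463 FPKM. ALDH1L1 had 0 to 54 counts in any library, so that its changes could not be resolved at this depth.

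**Figure D1:**
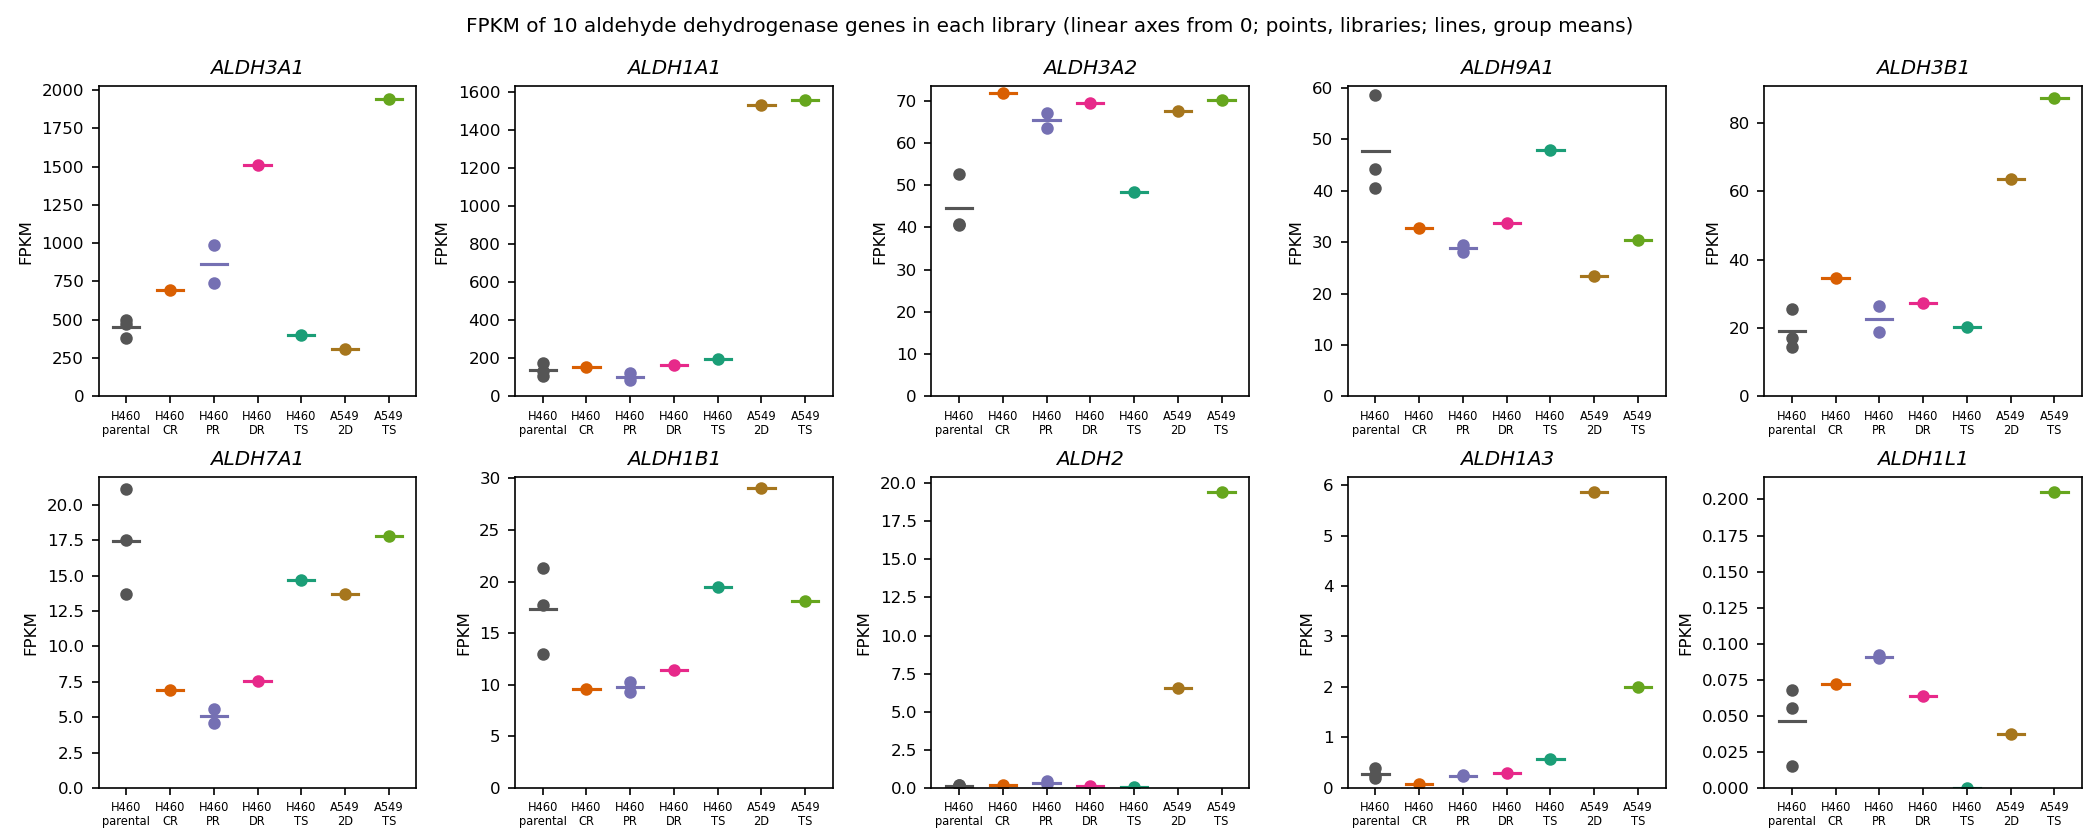
FPKM of the 10 aldehyde dehydrogenase genes on a linear axis from 0, 1 panel per gene with its own scale. Points are libraries, grouped as H460 parental, CR, PR, DR and TS and A549 2D and TS, and short lines are group means. ALDH3A1 lay above its parental range in all 4 drug-resistant libraries, and ALDH7A1, ALDH1B1 and ALDH9A1 lay below theirs. ALDH1A1, ALDH2, ALDH1A3 and ALDH3B1 were higher in both A549 libraries than in any H460 library.

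The comparison of drug-resistant with parental H460 cells asks which genes differ in cells that outlive chemotherapy. ALDH3A1 rose about 2-fold, and ALDH7A1, ALDH1B1 and ALDH9A1 fell, whereas ALDH1A1 did not pass the test. The 4 drug-resistant libraries were treated as 1 group, whose spread therefore includes differences between drugs. Of the 10 genes, 1 was called higher and 3 were called lower by edgeR at an adjusted p under 0.05. Among 18398 genes tested, 18.5% were called higher and 15.3% lower, so that the share of genes called higher was close to this background and the share called lower was above it, over only 10 genes. The median log2 fold change was 0.10 over the 10 genes and 0.06 over all genes tested. Of all genes, 3397 were called higher and 2823 lower, and with upper-quartile factors these were 4210 and 2032, with a median of 0.23.

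ALDH3A1, an enzyme abundant in the cornea that oxidizes lipid-derived aldehydes, was at 697 FPKM in the CR library, 737 and 990 FPKM in the PR libraries and 1510 FPKM in the DR library. Every drug-resistant library was above every parental library, and the DR library was the highest. The mean was 983 ± 374 FPKM (SD, n = 4) against 453 ± 61.2 FPKM (SD, n = 3), a ratio of 2.17. The log2 fold change in edgeR was 1.01 (SE 0.30, adjusted p = 0.0264). This call was lost without the DR library (log2 fold change 0.71, adjusted p = 0.0565), without parental replicate 1 (1.01, adjusted p = 0.0708) and without parental replicate 2 (0.86, adjusted p = 0.105). It was also lost with the form of the library name (with or without a hyphen) as a covariate (0.96, adjusted p = 0.0847).

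The other 2 genes of the ALDH3 group had smaller differences. ALDH3A2, the fatty aldehyde dehydrogenase of the endoplasmic reticulum, was at 40.7, 52.6 and 40.9 FPKM in parental cells. It was at 71.9 FPKM in CR, 67.1 and 63.6 FPKM in PR and 69.4 FPKM in DR cells. The groups did not overlap, but the log2 fold change of 0.50 (SE 0.18) did not pass the test in edgeR (adjusted p = 0.0563). DESeq2 (adjusted p = 0.0207), limma on log2(FPKM + 1) (adjusted p = 0.0191) and upper-quartile factors (adjusted p = 0.0156) called it higher. ALDH3B1 was at 14.7, 17.1 and 25.5 FPKM in parental cells and at 34.6, 18.9, 26.4 and 27.4 FPKM in CR, PR replicates 1 and 2 and DR cells. Its groups overlapped (log2 fold change 0.38, SE 0.28, adjusted p = 0.326).

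ALDH7A1, the lysine pathway enzyme also known as antiquitin, was at 13.7, 21.1 and 17.5 FPKM in parental cells. It was at 6.90 FPKM in CR, 5.55 and 4.58 FPKM in PR and 7.57 FPKM in DR cells, so that every drug-resistant library was below every parental library. The parental mean was 2.84 times the drug-resistant mean. ALDH7A1 fell by 1.60 on the log2 scale (SE 0.24, adjusted p = 0.00109), and the change was called with each library left out in turn.

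ALDH1B1, a mitochondrial enzyme, was at 21.3, 17.7 and 13.0 FPKM in parental cells and at 9.61 FPKM in CR, 10.3 and 9.28 FPKM in PR and 11.4 FPKM in DR cells. The groups did not overlap, although the DR library and parental replicate 3 were close. ALDH1B1 fell by 0.87 on the log2 scale (SE 0.19, adjusted p = 0.00723). ALDH9A1, which oxidizes a precursor of carnitine, was at 40.5, 58.6 and 44.2 FPKM in parental cells and at 32.7 FPKM in CR, 28.1 and 29.5 FPKM in PR and 33.7 FPKM in DR cells. It fell by 0.72 on the log2 scale (SE 0.19, adjusted p = 0.0150), and this call was lost without parental replicate 2, the highest library (fell by 0.61, adjusted p = 0.0603).

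ALDH1A1, the retinaldehyde dehydrogenase most used as a stem cell marker, was at 153 FPKM in CR, 123 and 85.0 FPKM in PR and 164 FPKM in DR cells. CR, DR and PR replicate 1 lay within the parental range of 106 to 176 FPKM, and PR replicate 2 lay below it. The log2 fold change was -0.17 (SE 0.28, adjusted p = 0.672). ALDH1A3 was at 0.0717 to 0.293 FPKM in the drug-resistant libraries and ALDH2 at 0.137 to 0.44 FPKM. Neither passed the test (adjusted p = 0.390 and 0.248).

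Among the 7 genes that reached 1 FPKM in 2 or more of these libraries, ALDH3A1 and ALDH3A2 were higher, and ALDH1B1, ALDH7A1 and ALDH9A1 lower, in all drug-resistant than in all parental libraries. Over all genes that passed the same filter, 21.7% were higher and 17.3% lower without overlap. The library names in the table have 2 forms, with and without a hyphen, and the labels do not say what the form stands for. Within the names without a hyphen (1 drug-resistant and 2 parental libraries), the difference in log2(FPKM + 1) was 0.59 for ALDH3A1, -1.34 for ALDH7A1, -0.64 for ALDH1B1 and -0.57 for ALDH9A1. Within the names with a hyphen (3 drug-resistant and 1 parental library), these differences were 1.40, -1.61, -0.76 and -0.86.

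The summed FPKM of the 10 genes was 739 ± 33.6 (SD, n = 3) in the parental group. In the drug-resistant group it was 1257 ± 390 (SD, n = 4), a ratio of 1.70. This sum followed ALDH3A1, which took 52.8–66.7% of it in parental and 69.3–82.8% in drug-resistant libraries. Without ALDH3A1 and ALDH1A1, the sum was 131 to 168 FPKM in parental and 130 to 156 FPKM in drug-resistant libraries, and these ranges overlapped.

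**Figure D2:**
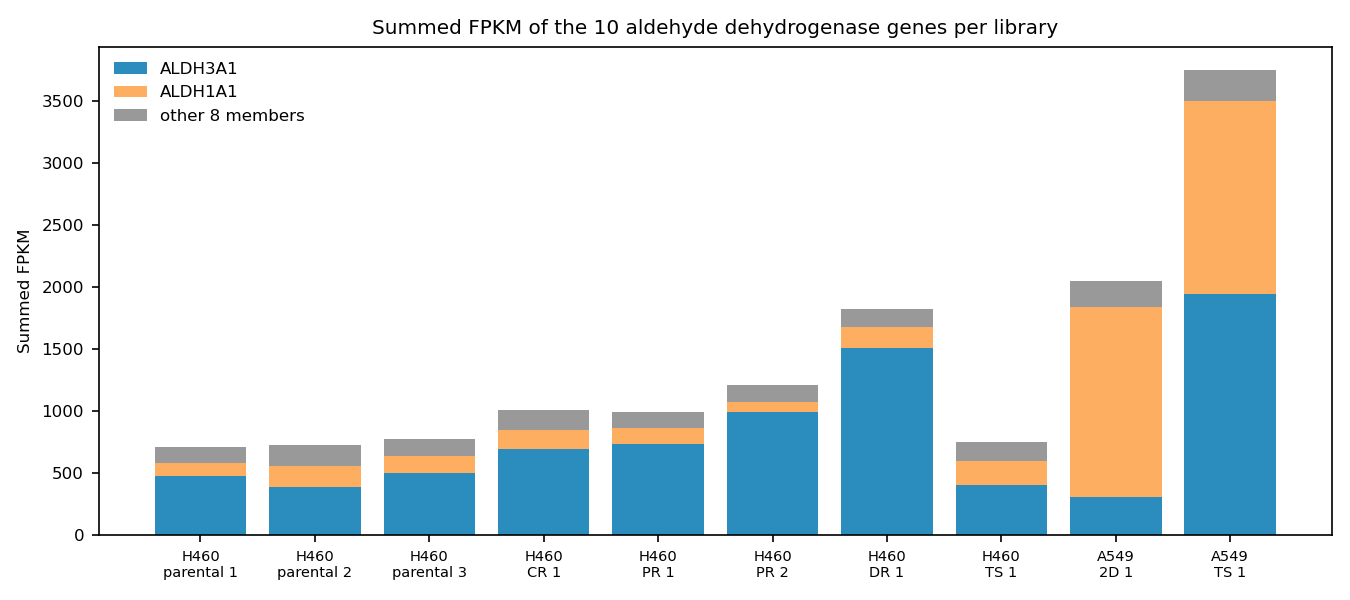
Summed FPKM of the 10 genes in each library (vertical axis from 0), split into ALDH3A1, ALDH1A1 and the other 8 genes. The parental H460 libraries summed to 712 to 776 FPKM and the drug-resistant libraries to 990 to 1823 FPKM, and the A549 TS library was highest at 3745 FPKM.

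By drug, PR cells could be tested alone, and ALDH7A1, ALDH1B1 and ALDH9A1 were lower than in parental cells. ALDH7A1 fell by 2.01 on the log2 scale (SE 0.28, adjusted p = 0.00249), ALDH1B1 by 1.05 (SE 0.27, adjusted p = 0.0200) and ALDH9A1 by 0.96 (SE 0.25, adjusted p = 0.0205). ALDH3A1 did not pass the test in PR cells (log2 fold change 0.70, SE 0.26, adjusted p = 0.0740). None of the 10 genes was called higher and 3 were called lower, against 17.5% and 10.6% of 19430 genes tested. With upper-quartile factors, the split over all genes moved from 3391 higher and 2064 lower to 4252 higher and 1347 lower, the median of all genes moved from 0.05 to 0.30, and the call of ALDH9A1 was lost (adjusted p = 0.0573) while ALDH3A1 was called higher (adjusted p = 0.0276). With limma, ALDH1B1 (adjusted p = 0.0626) and ALDH9A1 (adjusted p = 0.0741) lost their calls and ALDH3A1 was again called higher (adjusted p = 0.0309), as it was with DESeq2 (adjusted p = 0.0331). With either PR library left out, only ALDH7A1 kept its call among the 10 genes, and the same count of 1 was seen without parental replicate 2.

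With 1 library each, the CR and DR cells have differences from the parental mean that carry no test. ALDH7A1 was more than 2-fold lower in both, with differences in log2(FPKM + 1) of -1.20 in CR and -1.09 in DR cells. ALDH3A1 was more than 2-fold higher in DR cells, with a difference of 1.74, and not in CR cells, with 0.63. In CR cells, 5.84% of genes were more than 2-fold higher and 7.05% lower, and in DR cells these shares were 5.76% and 5.68%. Against parental replicate 1 alone, the ALDH7A1 differences were -0.90 and -0.78, under the 2-fold cut-off.

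In a direct test of PR against CR and DR cells, none of the 10 genes differed by edgeR. The largest log2 fold changes among the 7 genes above 1 FPKM were those of ALDH1A1 (-0.78, SE 0.29, adjusted p = 0.311) and ALDH7A1 (-0.70, SE 0.25, adjusted p = 0.294). ALDH3A1 differed by -0.52 (SE 0.35, adjusted p = 0.577). The test called 0.0% of 19770 genes higher and 0.0% lower, whereas 2479 genes had an unadjusted p under 0.05, DESeq2 called 420 genes and limma 101, none of them among these 10.

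**Figure D3:**
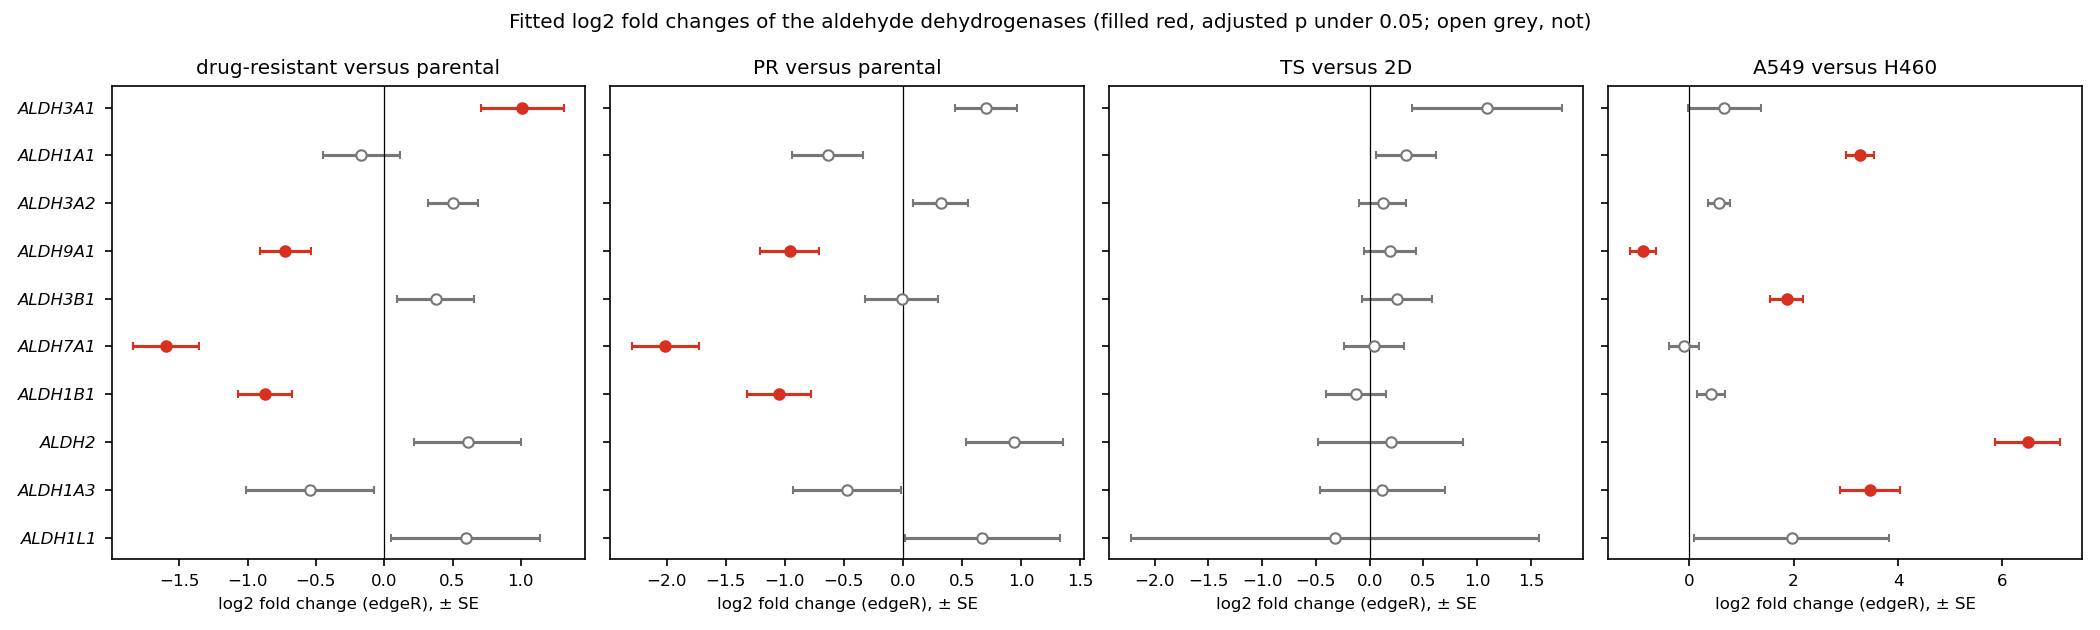
Log2 fold changes with standard errors (horizontal axis) of the 10 genes in 4 edgeR comparisons, with filled red points for an adjusted p under 0.05 and open grey points otherwise. ALDH7A1, ALDH1B1 and ALDH9A1 lay left of 0 in both comparisons with parental cells, no gene was called between TS and 2D culture, and ALDH2 (6.49) and ALDH1A3 (3.46) lay furthest right between A549 and H460.

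The comparison of TS with 2D culture asks which genes differ between these 2 ways of growing the cells. The 2D cells grew attached in medium with serum, and the TS cells in suspension in serum-free medium with supplements. Growth as spheres and the medium therefore cannot be told apart. None of the 10 genes was called when both lines were fitted jointly with a term for the cell line. The largest log2 fold change was that of ALDH3A1 (1.09, SE 0.69, adjusted p = 0.973). Over 18372 genes tested, 0.147% were higher and 0.0435% lower in edgeR, 1363 had an unadjusted p under 0.05, and DESeq2 called 537 genes. The lines are therefore also described one by one, with no test.

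In A549 cells, ALDH3A1 was at 308 FPKM in 2D and at 1944 FPKM in TS culture, 6.30 times higher and the highest value of this gene in any library. In H460 cells, the TS library was at 404 FPKM, inside the parental range of 384 to 501 FPKM. The difference between the lines in this response was not tested, since A549 had 1 library in each culture. ALDH2, the main mitochondrial acetaldehyde dehydrogenase, was at 6.56 FPKM in A549 2D and 19.4 FPKM in A549 TS cells, a difference in log2(FPKM + 1) of 1.44. ALDH1A3 went the other way, from 5.86 to 2.00 FPKM, a difference of -1.19.

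ALDH1A1 was at 1529 FPKM in A549 2D and 1556 FPKM in A549 TS cells, so that the 2 libraries were within 1.02-fold of each other. In H460 TS cells it was at 195 FPKM, above all 3 parental libraries and 1.41 times their mean. The other genes in H460 TS cells were all less than 2-fold from the parental mean on the log2(FPKM + 1) scale. In H460 TS cells, 1.93% of genes were more than 2-fold higher and 1.97% lower, with 0 of the 10 genes past this cut-off. ALDH1A3, ALDH2 and ALDH1L1 were under 1 FPKM in these libraries, outside these shares, and could not pass 2-fold on this scale. As ratios of FPKM, ALDH1A3 was at 2.01 and ALDH2 at 0.467 times the parental mean. In A549 TS cells, 6.7% of genes were higher and 3.02% lower, with 2 and 1 of the 10 genes past it. ALDH1L1 was again under 1 FPKM and outside the shares. The sum of the 10 genes was 2047 FPKM in A549 2D and 3745 FPKM in A549 TS cells, and the share of ALDH1A1 was 74.7% and 41.5%. The summed epithelial markers were at 2801 and 7177 FPKM in these libraries and CD68 at 19.6 and 69.8 FPKM, and the 10 proliferation genes summed to 818 and 462 FPKM. The part of these shifts in the differences was not tested.

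**Figure D4:**
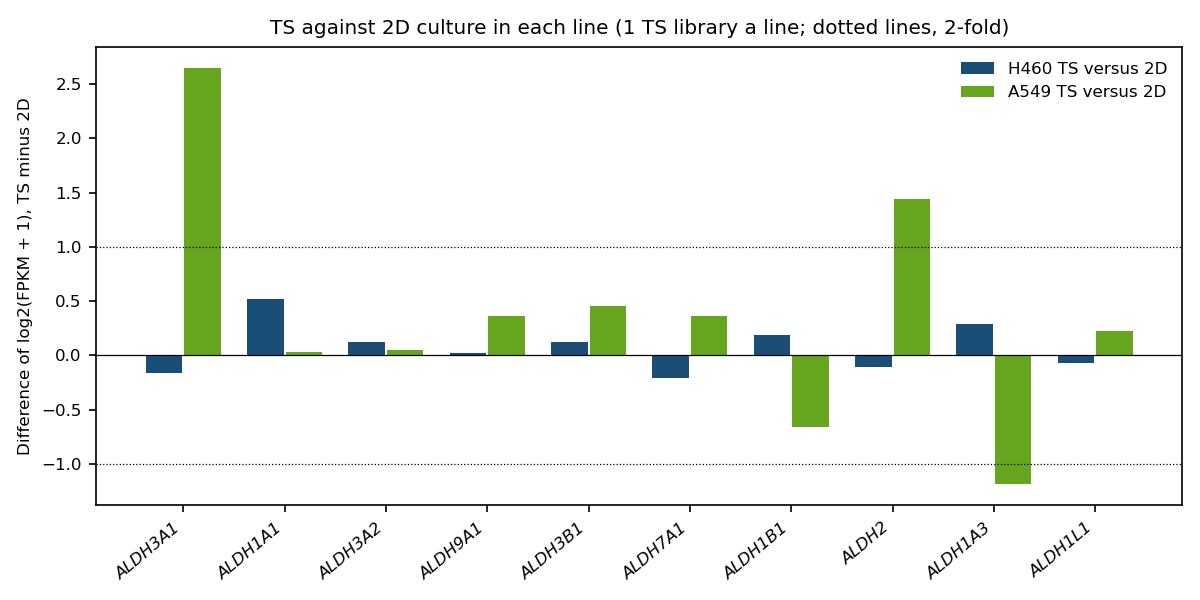
Difference in log2(FPKM + 1) between TS and 2D culture (vertical axis) for the 10 genes in H460 (blue, 1 TS library against the mean of 3) and A549 (green, 1 library against 1). Dotted lines mark 2-fold. ALDH3A1 (2.65), ALDH2 (1.44) and ALDH1A3 (-1.19) were past 2-fold in A549 and no gene was in H460.

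Several of the genes differed between the cell lines. In the cell line term of the same fit (2 A549 and 4 H460 libraries), ALDH1A1, ALDH2, ALDH1A3 and ALDH3B1 were higher in A549 cells, and ALDH9A1 was lower. ALDH1A1 was at 1529 FPKM and above in both A549 libraries and at most 195 FPKM in every H460 library, with a log2 fold change of 3.28 (SE 0.27, adjusted p = 0.000618). ALDH2 was at 0.0714 to 0.19 FPKM in the 4 H460 libraries, against 6.56 and 19.4 FPKM in A549 cells (log2 fold change 6.49, SE 0.63, adjusted p = 0.00102). These H460 values rest on 50 to 152 counts per library.

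ALDH1A3 was at 0.19 to 0.571 FPKM in these H460 libraries, against 5.86 and 2.00 FPKM in A549 cells (log2 fold change 3.46, SE 0.57, adjusted p = 0.00675). ALDH3B1 was at 14.7 to 25.5 FPKM in H460 and at 63.6 and 87.2 FPKM in A549 cells (1.87, SE 0.32, adjusted p = 0.00741). ALDH9A1 was at 23.4 and 30.4 FPKM in A549 and at 40.5 to 58.6 FPKM in H460 cells. It was lower by a log2 fold change of -0.88 (SE 0.25, adjusted p = 0.0459), and this call was lost with limma, with no filter on low counts and with any parental library left out (adjusted p = 0.0527 to 0.0799). Of the 10 genes, 4 were higher and 1 lower, against 14.4% and 9.42% of all genes tested. The remaining genes were not called by edgeR, whereas DESeq2 also called ALDH3A2 higher (log2 fold change 0.58, adjusted p = 0.00564). For ALDH3A1, the 2 A549 libraries lay on both sides of the H460 values.

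The other 9 human aldehyde dehydrogenases summed to 52.0 to 76.3 FPKM per library, below the 712 to 3745 FPKM of the 10 genes. ALDH18A1 had the highest parental mean of the 9, at 42.6 FPKM, above the means of ALDH3B1, ALDH7A1 and ALDH1B1. Of these 9 genes, 8 were tested in drug-resistant cells, and 3 were higher and 0 lower, against 18.5% and 15.3% of all genes. ALDH16A1, a member that lacks the catalytic cysteine, was at 11.2, 10.6 and 10.5 FPKM in parental cells and at 27.7, 21.5, 32.4 and 23.7 FPKM in CR, PR replicates 1 and 2 and DR cells. Its groups were far apart (log2 fold change 1.17, SE 0.19, adjusted p = 0.00148). ALDH8A1 was higher by 2.17 (SE 0.50, adjusted p = 0.00868), but was at most 0.438 FPKM. ALDH1A2, another retinaldehyde dehydrogenase, had 0 counts in all parental libraries and 4 to 32 counts in the drug-resistant ones. It was at least 4.67-fold higher by a floor of 3 counts per library (adjusted p = 0.00761). In PR cells, ALDH1L2, the mitochondrial folate enzyme, was lower by a log2 fold change of -1.86 (SE 0.37, adjusted p = 0.00729), and 3 genes were higher and 1 lower of 8 tested, against 17.5% and 10.6% of all genes.

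Of 18 genes around retinoic acid, 14 were tested in drug-resistant cells, of which 6 were higher and 1 lower, against 18.5% and 15.3% of all genes. Their median log2 fold change was 0.71, against 0.06 over all genes. CRABP2, which carries retinoic acid to the nucleus, was at 0.49 to 0.771 FPKM in parental cells, at 3.35 and 7.04 FPKM in PR cells, and at 0.804 and 1.03 FPKM in CR and DR cells, near the parental maximum (log2 fold change 2.08, SE 0.67, adjusted p = 0.0353). STRA6, the retinol transporter, was at 0.135 to 0.285 FPKM in parental cells, at 1.21 and 1.08 FPKM in PR cells, at 0.536 FPKM in DR cells and, inside the parental range, at 0.264 FPKM in CR cells (1.73, SE 0.51, adjusted p = 0.0255). RARG, a retinoic acid receptor, was lower by a log2 fold change of -0.80 (SE 0.16, adjusted p = 0.00469). In A549 against H460 cells, 6 of 16 tested were higher and none lower, against 14.4% and 9.42% of all genes. Among them was DHRS9, which oxidizes retinol (7.53, SE 0.53, adjusted p = 0.000320). DHRS9 was at 0.334 FPKM in A549 2D and 21.6 FPKM in A549 TS cells, and it was the only one of the 16 called between TS and 2D (6.21, SE 0.54, adjusted p = 0.0113). In H460 cells, DHRS9 was at 0 FPKM in all parental libraries and at 0.0969 FPKM (15 counts) in the TS library. In the drug-resistant libraries it was at 0.103 to 0.274 FPKM, with 20 to 49 counts. DHRS9 was called higher there by edgeR (adjusted p = 0.00112), at least 10.7-fold by the floor of 3 counts per library.

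Alcohol dehydrogenases and aldo-keto reductases interconvert aldehydes and alcohols. Of 12 alcohol dehydrogenases and aldehyde reductases tested in drug-resistant cells, 2 were higher and 2 lower, shares close to the 18.5% and 15.3% of all genes. AKR1C1 was at 122, 167 and 121 FPKM in parental and at 298, 262, 309 and 369 FPKM in CR, PR replicates 1 and 2 and DR cells (log2 fold change 1.09, SE 0.23, adjusted p = 0.00510). AKR1B1, aldose reductase, was higher by 1.06 (SE 0.33, adjusted p = 0.0307), but not in every library. It was at 547 and 656 FPKM in PR and 358 FPKM in DR cells. In CR cells it was at 203 FPKM, inside the parental range of 162 to 240 FPKM. ADH5, which clears formaldehyde bound to glutathione, was lower by a log2 fold change of -0.88 (SE 0.20, adjusted p = 0.00806).

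ALDH3A1 is a known target of NRF2, the transcription factor of the antioxidant response. A list of 20 genes, made of NRF2 itself (NFE2L2), KEAP1 and targets of NRF2, was therefore counted. In drug-resistant cells, 3 of 19 tested were higher and 2 lower, not more than the 18.5% and 15.3% of all genes. Their median log2 fold change was -0.08, against 0.06 over all genes. Whether NRF2 had a part in the ALDH3A1 difference was not tested. ABCC3 (log2 fold change 1.37, SE 0.36, adjusted p = 0.0160) and ABCC2 (0.93, SE 0.20, adjusted p = 0.00658), both drug and conjugate exporters, were among the higher genes. GCLM, which serves glutathione synthesis, was lower by a log2 fold change of -1.03 (SE 0.23, adjusted p = 0.00697). Between TS and 2D cells, GPX2, a glutathione peroxidase, was the only gene of this list called (4.68, SE 0.43, adjusted p = 0.0128), and it was at 44.8 FPKM in A549 2D and 1045 FPKM in A549 TS cells. In H460 cells, GPX2 was at 0 FPKM in all parental libraries and at 0.0637 FPKM (6 counts) in the TS library.

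The genes with the most similar pattern were ranked by Pearson's r of log2(FPKM + 1) over the 10 libraries, among 13439 genes that reached 1 FPKM in 2 or more libraries. The points share libraries of the same line and treatment, so r is a description. ALDH3A1 was most like IFIT1 (0.934), OAS2 (0.933) and ISG15 (0.929), which are known interferon-induced genes. Their levels were low, at 0.304 to 6.14, 0.0313 to 1.6 and 2.77 to 31.0 FPKM, and a link of ALDH3A1 to interferon was not tested. ALDH7A1 was most like TOM1L1 (0.980), DHTKD1 (0.968) and SPC24 (0.957). ALDH1B1 was most like BOP1 (0.985), UBE2M (0.978) and PHB (0.977), and ALDH9A1 was most like SELENOO (0.971), BTN3A2 (0.964) and NDUFS1 (0.961). For ALDH1A1, the most similar genes were PPP1R9A (0.985), CNFN (0.984) and C11orf49 (0.983), and for ALDH2 they were MST1R (0.999), PKDCC (0.998) and FRAS1 (0.998). ALDH1A3 was followed by TMEM98 (0.996), PDXK (0.995) and LRRK1 (0.993). ALDH3A2 paired with GPR137B (0.956), IL13RA1 (0.952) and IFT20 (0.949), and ALDH3B1 with TBC1D22A (0.981), SHARPIN (0.980) and OGFOD3 (0.977).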

How the data were processed

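The authors deposited 1 table of read counts, FPKM and TPM per gene and library. Per the submitters' processing notes, bcl2fastq 1.8.4, Trimmomatic, HISAT2 2.1.0 and StringTie 2.1.3b were used with GRCh38. The counts deposited by the authors are whole numbers without normalization, and the FPKM deposited by the authors is scaled for length and depth. The TPM values deposited by the authors were not used.

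Counts were tested with edgeR 4.0.16 (quasi-likelihood test, TMM, filterByExpr) in R 4.3.3, with Benjamini-Hochberg adjustment over all genes tested and a threshold of 0.05. Groups of 1 library were compared on log2(FPKM + 1) with a cut-off of 2-fold and no test. Alternatives were DESeq2 1.42.0, limma 3.58.1 (trend) on log2(FPKM + 1), upper-quartile factors, no filter, a pseudocount of 0.1, single parental controls, libraries left out and a replicate block. The form of the library name was added after seeing the data. The fit was also run on simulated counts with the same dispersion for every gene, which does not measure its error rate in these data. Replicates differed by more than sampling noise (chi-square per gene 80.7 to 338). All 10 genes are named, with at most 5 called genes of each other list and the 3 most similar genes of each. The values of 1 marker gene are not reported here. The genes and lists were chosen with earlier results of these data known. Values were handled with Python 3.11.15 and pandas 2.3.3.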

Additional observations from a re-analysis of the deposited data

Results flagged for a closer look

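For 3 genes, the TS library of H460 lay outside its parental range on one side and the TS library of A549 lay on the other side of its 2D library. ALDH1A3 was at 0.571 FPKM in H460 TS cells, above the parental libraries (0.19 to 0.40 FPKM), and fell from 5.86 to 2.00 FPKM in A549. ALDH2 was at 0.0714 FPKM in H460 TS cells, below the parental libraries (0.11 to 0.19 FPKM), whereas A549 went from 6.56 to 19.4 FPKM. ALDH1L1 was at 0.0 FPKM in H460 TS cells with 0 counts, against 5 to 20 counts in the parental libraries, and had 9 counts in A549 2D and 54 counts in A549 TS cells. The differences between the lines were not tested, since each line had 1 TS library.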

How the results depend on the processing

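Of the log2 fold changes of the 10 genes in the 5 tests, 428 recomputed values kept their direction and side of the threshold, 20 lost their call, 10 gained one and 11 changed sign, none of the latter called. ALDH1A1 in drug-resistant cells ranged from -0.355 to 0.021 with 1 replicate left out. ALDH3B1 in PR cells, at -0.01, was 0.017 with DESeq2, 0.25 with limma, 0.23 with upper-quartile factors, -0.233 to 0.314 with 1 replicate left out and, over replicates 1 and 2, 0.31 without and 0.30 with the replicate block. Between TS and 2D, ALDH1A3 was -0.301 with limma and -0.127 to 0.186 with 1 replicate left out, and ALDH7A1 was -0.023 to 0.119. Leaving out 1 replicate gave 2 to 4 of the 10 genes called in drug-resistant cells and 1 to 4 in PR cells. Genes called with 1 replicate left out numbered 950 to 6661 in PR cells, 0 to 66 for PR against CR and DR, 6 to 35 for TS and 2644 to 3905 for A549 against H460. With limma, 3026 genes were called in PR cells and 101 for PR against CR and DR. DESeq2 called 420 genes there and 537 for TS, and no filter gave 509 for PR against CR and DR. Among libraries without a hyphen in the name, 6 genes were called for TS and 2644 for A549 against H460. With a pseudocount of 0.1, genes more than 2-fold apart rose from 1632 to 2632 in CR, 1448 to 2316 in DR, 483 to 908 in H460 TS and 1226 to 1848 in A549 TS cells. With parental replicate 1 alone as the control, 2512 genes and 2 of the 10 were past 2-fold in CR and 1 of the 10 in DR cells, and with replicate 3 alone 875 genes were in H460 TS cells. The causes were not tested.

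PR and parental replicates share the numbers 1 and 2, and their differences correlated weakly across genes (r = 0.156 over 12593 genes), so that the numbers were not taken as pairs. The numbers coincide with the form of the library name, without a hyphen for replicate 1 and with a hyphen for replicate 2 of both groups. With the replicate block, 6775 genes were called, against 6661 without it on the same libraries. ALDH3A1 was called higher in PR cells on these libraries by edgeR, with the block (adjusted p = 0.0323) and without it (adjusted p = 0.0417). Single libraries of a group are assumed to vary like the others. ALDH1L1 had at most 54 counts in any library. How far counting error or the few libraries limit each gene was not tested.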
